A study of Arabidopsis thaliana with 8 samples.

Results

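A set of 114 genes was studied here whose transcripts stood higher with salicylic acid (SA) than with water in wild-type seedlings and lower with SA than with water in seedlings labelled npr1-1. SA is the plant hormone that builds up after attack by biotrophic pathogens and turns on defense genes, and NPR1 is the coactivator through which most of this transcription is known to run. In the mutant, genes that need NPR1 are usually described as losing the rise with SA, so a transcript that falls there is a different pattern from one that stays flat. The members were chosen on the deposited log2 values themselves. A gene entered the set when its mean rose by at least 1 (a doubling) in Col-0 and fell by at least 1 by the npr1-1 labels. Of 13356 genes with a probe set of their own on the ATH1 chip (a probe set is a group of short probes that reads 1 transcript, and the brightest stands for a gene), 122 met both conditions. Of these, 8 genes were left out by name (UGT76B1, GRX480, GH3.3, ECS1, AT5G03350, AT3G28510, AT5G55450 and AT1G49750), among them the 3 with the widest gap between the 2 differences.

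RNA came from whole seedlings of Arabidopsis thaliana, 2 weeks old, grown in MS medium that was then replaced by water or by 2 mM SA for 24 h. The 4 groups were Col-0 water, Col-0 SA, npr1-1 water and npr1-1 SA, each with 2 arrays given as biological replicates, and no group carried another allele or agent. The mutant line npr1-1 has a point mutation, so the amount of its own transcript is no check of the genotype labels. NPR1 and PR1 were not analysed here. Fewer cells of a type and less RNA per cell cannot be told apart in whole seedlings.

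The arrays fell into their 4 groups, with a correlation over probe sets of 0.994 to 0.996 between replicates and 0.922 to 0.966 between arrays of different groups. The groups labelled npr1-1 were also set against those of Col-0, over genes that include the 8 left out by name. Over the 13242 genes outside the set, the mean of npr1-1 SA correlated at 0.965 with Col-0 water and at 0.936 with Col-0 SA, whereas the mean of npr1-1 water correlated at 0.966 with Col-0 water and at 0.962 with Col-0 SA. If the labels of the npr1-1 water and npr1-1 SA arrays were exchanged, the same 114 genes would read as raised by SA in both genotypes. Whether they were exchanged was not tested. The labels were kept as given, and every direction for npr1-1 below holds as far as they do.

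Opposite movement in the 2 genotypes was common among the genes that Col-0 raised. In Col-0, 284 genes rose by at least 1. Of these, 122 (43%) fell by at least 1 by the npr1-1 labels, 155 lay between the thresholds and 7 rose by at least 1. Taken from the other side, 513 genes fell by at least 1 by the npr1-1 labels and 23.8% of them were raised in Col-0. The mirror pattern, lowered in Col-0 and raised by the npr1-1 labels, held 188 genes. Since the 2 differences chose the members, their sizes are given as a description and without a test.

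**Figure D1:**
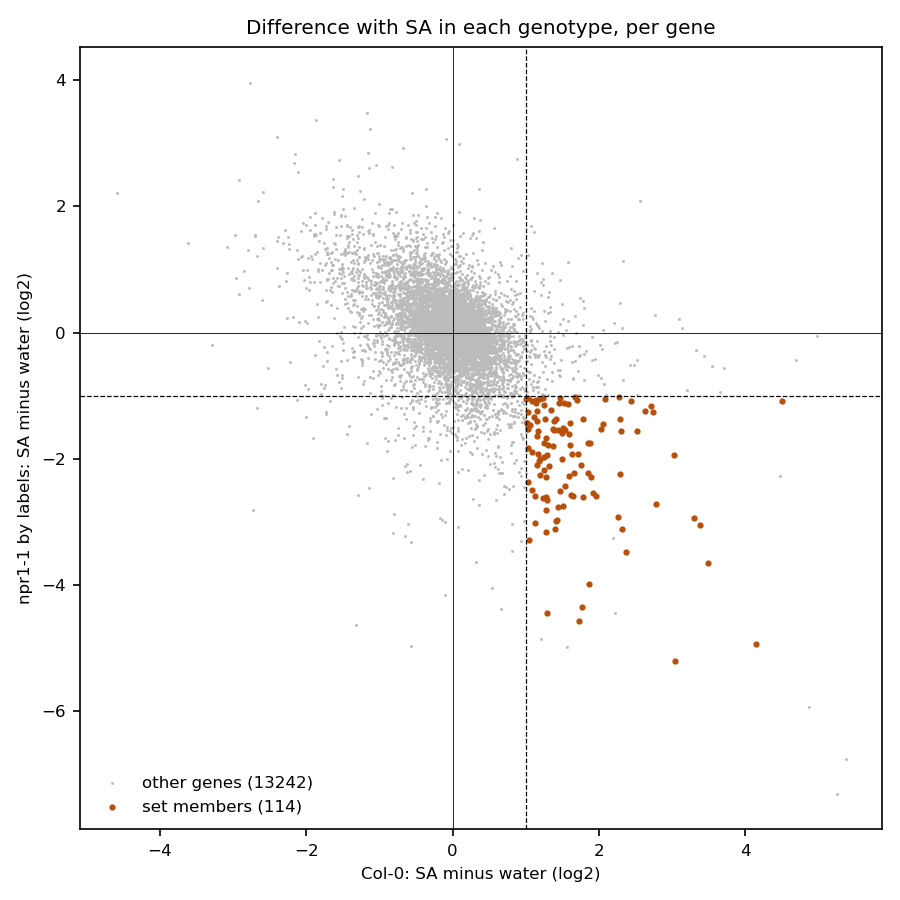
The difference between SA and water in Col-0 (horizontal axis, log2) and under the npr1-1 labels (vertical axis, log2) is plotted for each of 13356 genes, with the 114 set members in orange and the 2 thresholds as dashed lines. The members fill the lower right corner, and the grey points in the same corner are the 8 genes left out by name.

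Within the set, the rise in Col-0 ran from 1.01 to 4.50 with a median of 1.45 on the log2 scale, against a median of 0.03 over all genes. The fall by the npr1-1 labels was larger at the median, −1.82, with a range from −5.20 to −1.02 (all genes, 0.00). The fall exceeded the rise in 79 members and the rise exceeded the fall in 35. A rise of at least 2 was seen in 23 members, a fall of at least 2 in 49 and both in 10. Size of rise and size of fall were weakly related over the 114 members, which share the same 8 arrays (Pearson r of 0.27, Spearman rho of 0.18).

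In levels, the median of the set was higher in Col-0 SA and npr1-1 water than in the other 2 groups. The median log2 level of the members was 3.03 in Col-0 water, 4.97 in Col-0 SA, 4.44 in npr1-1 water and 2.20 in npr1-1 SA, while the median over all genes stayed between 1.06 and 1.14 in the 4 groups. The set was thus brighter than most genes on the chip. A mean level under 1, near the middle of all genes, was found for 7 members in Col-0 water, for 17 in npr1-1 SA and for 0 in the other 2 groups. Replicates differed little, with a median SD of 0.12 to 0.13 in each group (n = 2) and a highest SD of 0.57.

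The order of the 4 group means shows where single members differ. The rule puts Col-0 SA above Col-0 water and npr1-1 water above npr1-1 SA in every member. It thus fixes much of the order, and the counts are a description. Col-0 SA and npr1-1 water were the 2 highest groups in 98 members. The commonest order, in 46 members, was Col-0 SA, npr1-1 water, Col-0 water, npr1-1 SA from high to low. In another 31 members the 2 upper groups changed places. In 16 members both Col-0 groups lay above both npr1-1 groups, and in 21 Col-0 water was the lowest group, with npr1-1 water highest in 15 of these and Col-0 SA in 6. Not all neighbours in these orders were apart: both arrays of Col-0 SA lay above both of npr1-1 water in 60 members (28.1% of all genes), both of npr1-1 water above both of Col-0 SA in 29 (29.7%), and the arrays of these groups overlapped in the rest.

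**Figure D2:**
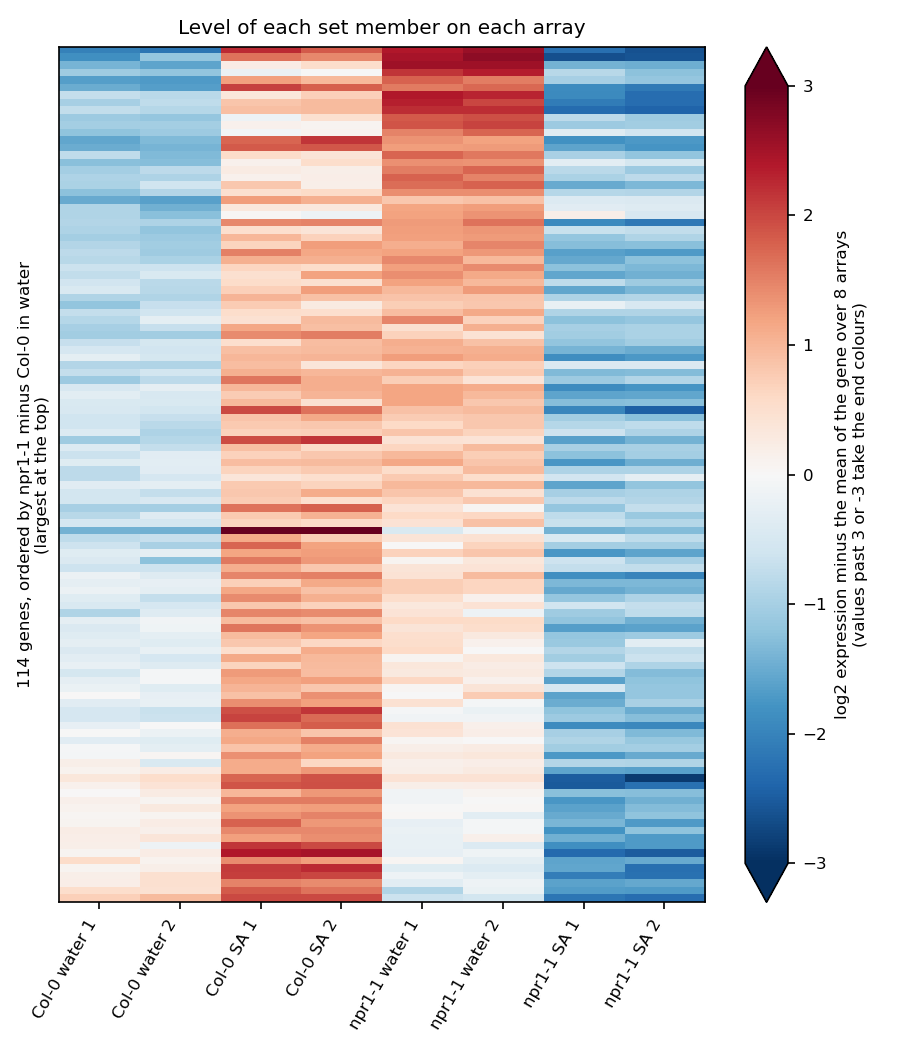
Each row is 1 of the 114 members and each column 1 array, and the colour gives the log2 value minus the mean of the gene over the 8 arrays. Rows are ordered by the npr1-1 minus Col-0 difference in water: Col-0 SA is red or pale and npr1-1 SA mostly blue from top to bottom, while npr1-1 water turns from red at the top to pale or blue at the foot.

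The members with the widest gap between the 2 SA differences carry only a locus code in the annotation used, and no function is given for them here. AT1G19960 read 1.11 and 0.94 in Col-0 water, 5.37 and 4.97 in Col-0 SA, 5.52 and 5.73 in npr1-1 water, and 0.87 and 0.52 in npr1-1 SA. It was therefore near the bottom of the scale in 2 groups and well above it in the other 2, with differences of 4.14 and −4.93 (SE 0.17 each) and the widest gap of the set, 9.07. AT2G32160 had the same shape with 1.36 and 2.04, 4.84 and 4.63, 5.68 and 5.89, and 0.56 and 0.61 in that order of groups. Its fall, −5.20 (SE 0.19), was the largest of the set. AT3G22240 did this at the top of the scale, with 7.87 and 7.72 in Col-0 water, 11.42 and 11.17 in Col-0 SA, 10.92 and 11.09 in npr1-1 water, and 7.47 and 7.24 in npr1-1 SA. Its differences were 3.49 and −3.65, nearly of a size.

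In several of these members the fall was far larger than the rise. AT2G41090 read 6.64 and 6.54, 8.29 and 8.34, 9.59 and 9.61, and 5.08 and 4.99 (Col-0 water, Col-0 SA, npr1-1 water, npr1-1 SA), so that it rose by 1.73 and fell by 4.57. AT1G35710 (rise of 1.77, fall of 4.35), AT3G04210 (1.28 and 4.44) and AT5G52540 (1.87 and 3.98) shared that imbalance, and in all of these the npr1-1 water arrays were the highest of the 8. The reverse was seen in AT5G45180, which rose most in Col-0, by 4.50 from 0.59 and 0.56 to 5.12 and 5.03, and fell by 1.08 from 1.54 and 1.90 to 0.58 and 0.70. AT2G41380, at 2.17 and 2.38, 5.20 and 5.39, 3.68 and 3.64, and 1.61 and 1.82, also rose more (3.02) than it fell (1.94). Of the remaining members among the 15 widest gaps, AT4G13180 (gap 6.42), AT5G38910 (6.23), AT3G07600 (5.84), AT5G51830 (5.49) and AT1G13750 (differences of 2.26 and −2.92) had both Col-0 SA arrays and both npr1-1 water arrays above the other 4. The same was true of AT2G41730 (2.31 and −3.11), the only member read by a probe set whose suffix marks probes shared with other transcripts.

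At the thresholds the set has no natural edge. Just inside on the side of Col-0 were AT4G26060 with a rise of 1.01, AT5G43150 (1.01) and AT1G28190 (1.02), and just outside were AT3G47010, AT5G47730 and AT3G09490, each at 1.00 after rounding. On the side of npr1-1, ATG8B, AT3G16330 (both −1.02) and SIS (−1.03) were just inside, whereas UGT87A2 and AT3G03270 (both −0.99) and AT5G14730 (−0.98) were just outside.

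Among the members, 22 have a gene symbol and 92 only a locus code. UDP-glycosyltransferases are enzymes that attach a sugar to hormones and other small molecules and in this way often store or inactivate them. Among the 22 with a symbol, they were the family with most members. Families among the 92 with only a locus code were not counted, so a larger one may lie there. UGT73D1 read 4.66 and 4.81 in Col-0 water, 6.99 and 7.06 in Col-0 SA, 4.32 and 4.46 in npr1-1 water, and 2.24 and 2.07 in npr1-1 SA. Both npr1-1 water arrays were below both Col-0 water arrays, and the differences with SA were 2.29 and −2.23 (SE 0.12 each). IAGLU, which forms the glucose ester of the auxin indole-3-acetic acid, read 2.77 and 2.65, 5.55 and 5.35, 5.10 and 5.17, and 3.87 and 3.87 in the same order. Here both npr1-1 SA arrays stayed above both Col-0 water arrays. UGT73B4 was dim, with means of 1.24 ± 0.37, 3.32 ± 0.04, 2.02 ± 0.41 and 0.96 ± 0.22 (SD, n = 2) in the same order. Its arrays of npr1-1 SA and Col-0 water overlapped. GT72B1 (UGT72B1), known for glucosylating chlorinated phenols and monolignols, was bright throughout: 6.06 and 6.14, 7.37 and 7.61, 6.94 and 6.72, and 5.26 and 5.33.

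For comparison, all 52 measured genes named as UDP-glycosyltransferases were read in the fit over all probe sets, a list composed after the values were seen. In that fit (limma, adjusted p under 0.05 over 22746 probe sets), 10.1% of all probe sets were called higher with SA in Col-0 and 13.4% lower. By the npr1-1 labels, 14.8% were called higher and 13.4% lower. These shares include 9233 probe sets without a gene of their own. Over 13126 genes that were neither members, left out by name nor next to a member, 7.8% were called higher and 11.4% lower in Col-0. By the npr1-1 labels, 13.4% of these genes were called higher and 10.9% lower. Of the 52 genes, 11 were called higher and 2 lower in Col-0, and 7 were called higher and 14 lower by the npr1-1 labels. Those called both higher in Col-0 and lower by the npr1-1 labels were 8. They were the 4 members, UGT76B1, which was left out by name, and UGT87A2, UGT73B5 and UGT84A3, which missed 1 or both thresholds of size. The share of all genes called in both was not counted. Of the 52, 5 met the rule of the set itself (the 4 members and UGT76B1), which 0.9% of all genes did. The family was read because it had most members among those with a symbol, so these counts support nothing. The median difference of the family was 0.12 for Col-0, with −0.10 under the npr1-1 labels. Probes of close relatives in this family can share transcripts, and this was not tested.

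**Figure D3:**
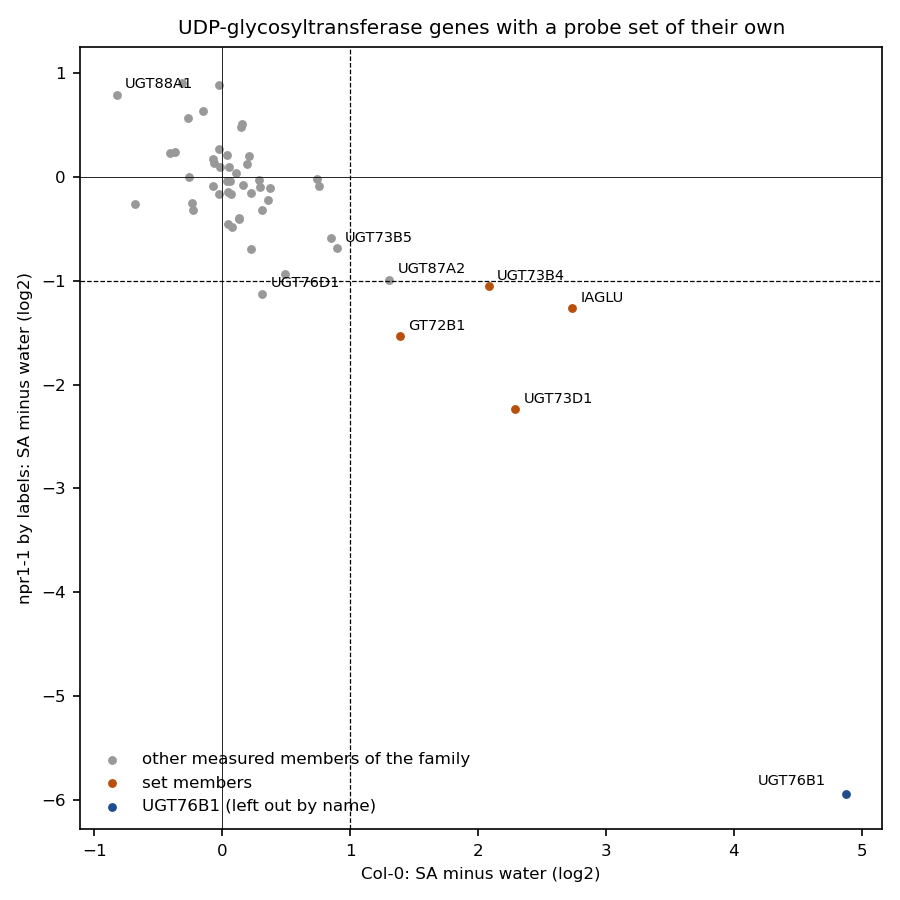
The 52 measured UDP-glycosyltransferase genes are plotted by their SA minus water difference in Col-0 (horizontal axis, log2) and under the npr1-1 labels (vertical axis, log2), with the thresholds of the set as dashed lines. The 4 members lie past both lines, and UGT76B1 (4.87 and −5.94) stands alone at the lower right.

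Members of nitrogen and carbon metabolism formed a second group by known role. NRT2.5, a high-affinity nitrate transporter of the plasma membrane, read 1.19 and 1.02 in Col-0 water, 2.73 and 3.31 in Col-0 SA, 3.15 and 3.52 in npr1-1 water, and 0.77 and 0.80 in npr1-1 SA. ASPGB1, an asparaginase that releases ammonium from asparagine, read 5.19 and 5.18, 7.81 and 7.99, 6.59 and 6.25, and 5.03 and 5.49. Both rose with SA in Col-0 (by 1.92 and 2.71), and the arrays of ASPGB1 overlapped between npr1-1 SA and Col-0 water. ICL, the isocitrate lyase of the glyoxylate cycle, read 2.33 and 2.15, 4.77 and 4.98, 2.80 and 2.64, and 1.62 and 1.33. Its level in npr1-1 water was thus much nearer to Col-0 water than to Col-0 SA. IDH-VI, an isocitrate dehydrogenase subunit, differed from ICL in this respect, with 3.87 and 3.66, 5.26 and 5.29, 5.07 and 5.29, and 3.62 and 3.71: npr1-1 water lay at the level of Col-0 SA, and npr1-1 SA at that of Col-0 water. NDB2, an alternative NAD(P)H dehydrogenase of mitochondria, had differences of 1.65 and −2.22. GFAT, which makes glucosamine phosphate for amino sugar synthesis, was among the smallest of the set with 1.13 and −1.06.

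Another group acts at the cell wall or outside the cell. CHI, a chitinase, read 4.49 and 4.60, 6.50 and 6.65, 4.06 and 4.01, and 2.86 and 2.16 in the 4 groups. The peroxidase Prx37, a secreted class III enzyme, had the same order, with 4.92 and 5.14, 6.18 and 6.18, 3.57 and 3.66, and 2.04 and 1.92. In both genes each Col-0 array lay above each npr1-1 array. The fructan exohydrolase cwINV6, of the cell wall invertase family, read 5.30 and 5.49, 6.71 and 6.88, 5.40 and 5.40, and 2.47 and 2.10. Its water levels were alike in the 2 genotypes, with a difference of 0.00 (SE 0.15). The pectin methylesterase PMEPCRF showed the opposite of CHI and Prx37, at 4.27 and 4.26, 5.66 and 6.06, 6.90 and 6.87, and 5.20 and 5.01: npr1-1 water was highest and Col-0 water lowest. The serine carboxypeptidase-like gene scpl46 had that order too, with 1.84 and 1.96, 2.95 and 3.16, 4.53 and 4.78, and 2.68 and 2.45.

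The other members with a symbol belong to prenyl metabolism, signaling and protein turnover. PCME, which removes the methyl group from isoprenylated cysteine, read 2.52 and 2.82, 3.86 and 3.97, 4.12 and 3.90, and 1.94 and 2.15. FLDH, which oxidizes the prenyl alcohol farnesol, read 2.84 and 2.61, 3.96 and 3.89, 4.63 and 4.38, and 2.64 and 2.35. Both npr1-1 water arrays lay above both Col-0 SA arrays for FLDH and overlapped with them for PCME. CML43, a calmodulin-like calcium sensor, had differences of 1.53 and −1.54, and the small GTP-binding protein gene SGP1 1.41 and −1.37. RHF1A, a RING-H2 ubiquitin ligase, had 1.14 and −1.11. ATG8B, a protein of the autophagosome membrane, read 5.81 and 5.87, 7.70 and 7.31, 6.95 and 7.02, and 6.11 and 5.82, so it returned to the level of Col-0 water in npr1-1 SA. SIS, named as salt-induced and serine rich, was the last with a symbol (1.23 and −1.03).

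**Figure D4:**
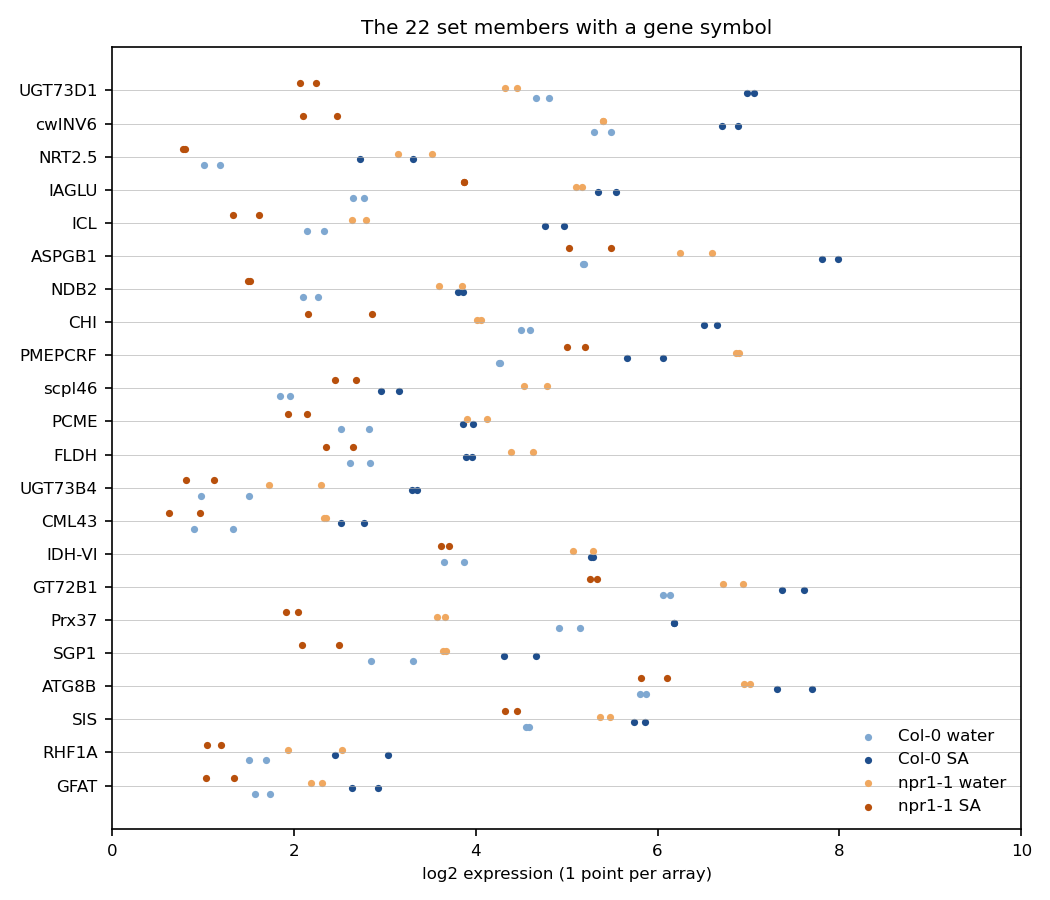
Log2 expression of the 22 members with a gene symbol on each of the 8 arrays, 1 point per array, ordered from the widest gap between the 2 SA differences (top) to the narrowest. Dark blue (Col-0 SA) lies to the right of light blue (Col-0 water) and light orange (npr1-1 water) to the right of dark orange (npr1-1 SA) in every gene, while the place of light orange against dark blue varies from scpl46 (4.53 and 4.78 against 2.95 and 3.16) to UGT73D1 (4.32 and 4.46 against 6.99 and 7.06).

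Where the genotypes differed without SA was read from the 4 water arrays. The rule does not name this contrast but uses its arrays, and a low value in Col-0 water or a high one in npr1-1 water helps a gene into the set, so the counts are given as a description and support nothing. Over all probe sets, 14.2% were called higher and 12.7% lower in npr1-1 than in Col-0 in water (limma, adjusted p under 0.05). Of the 114 members, 88 (77.2%) were called higher and 4 lower, and 22 were not called. The median difference was 1.31 with a range from −1.41 to 4.60, against 0.02 over all genes. Both npr1-1 water arrays lay above both Col-0 water arrays in 94 members (31.3% of all genes) and below them in 14 (25.6%).

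The largest water differences were those of AT1G19960 (4.60, SE 0.17), AT2G32160 (4.08, SE 0.19), AT5G52540 (4.03, SE 0.13), AT1G17430 (3.38) and AT5G51830 (3.33). AT5G52540 read 1.71 and 1.52 in Col-0 water and 5.64 and 5.65 in npr1-1 water. The 4 members called lower in npr1-1 were Prx37 (−1.41, SE 0.13), AT5G44990 (−1.04), AT5G63990 (−0.58) and AT5G38900 (−0.56). CHI, at −0.51, was not called. Under SA, the difference of npr1-1 minus Col-0 was below 0 in all 114 members. It ran from −4.87 (UGT73D1) to −0.09, with a median of −2.31. The choice of the members favours this direction without fixing it, so it is a description too.

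Across the diagonal of the design, npr1-1 SA lay below Col-0 water in 93 members by their means, with a median difference of −0.62, and both of its arrays lay below both Col-0 water arrays in 82 (25.6% of all genes). The reverse held in 11 (32.0%). Between npr1-1 water and Col-0 SA the median difference was −0.31, with npr1-1 water lower in 68 members and higher in 46. All 4 groups enter the rule, and a low value in npr1-1 SA or in Col-0 water helps a gene into the set, so these differences are a description too.

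**Figure D5:**
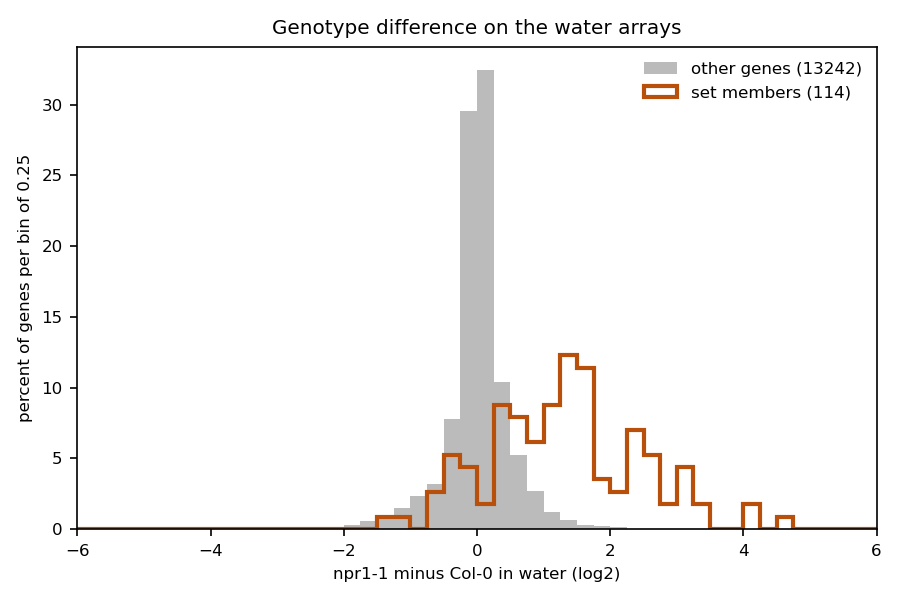
Distribution of the npr1-1 minus Col-0 difference in water (horizontal axis, log2) for the 114 members (orange outline) and the other 13242 genes (grey), as percent of each per bin. The members are centred at 1.31 and the full set of genes at 0.02, with the left tail of the members ending at −1.41 (Prx37).

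The rule was also applied to the arrays of 1 replicate and the genes read on those of the other. All 8 arrays had entered the choice of the set, so this is no independent check. When the rule was applied to the replicate 1 arrays alone, 117 genes were chosen (the 8 named genes again left out). On the replicate 2 arrays all 117 had a rise in Col-0 and a fall by the npr1-1 labels, where 33.2% of all genes had these 2 signs, and 77 passed both thresholds again. The median differences there were 1.40 and −1.86. Chosen on replicate 2 and read on replicate 1, 114 genes all kept both signs (27.0% of all genes), 77 passed both thresholds and the medians were 1.41 and −1.78. The smallest rise on the other replicate was 0.47 in either direction of this reading. The smallest falls were −0.21 on replicate 2 and −0.15 on replicate 1. This reads only the spread between replicates, since both replicates carry the same labels and were normalized together. Replicates differed little, so the kept signs were to be foreseen and support nothing.

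A second probe set existed for 1 member, AT5G49680. It was dim, between 0.48 and 0.81 on all arrays, and showed differences of 0.20 and −0.06, so it did not repeat the pattern of the brighter probe set.

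Along the chromosomes the members were scattered. Chromosomes 1 to 5 held 23, 11, 27, 19 and 34 members, with 29.8% of the members on chromosome 5 (all genes, 22.4%) and 9.6% on chromosome 2 (16.3%). By gene order in assembly TAIR10.1, 3 pairs of members lay side by side: AT5G38900 with AT5G38910, AT5G44990 with AT5G45000, and AT5G45500 with AT5G45510. The pair AT1G51860 and AT1G51890 lay 3 genes apart. AT5G45500 (6.14 and 6.05, 7.58 and 7.87, 7.50 and 7.53, 5.69 and 5.48) and AT5G45510 (5.85 and 6.07, 7.30 and 7.37, 6.76 and 6.26, 4.49 and 4.93) were alike in level and in both differences (1.63 and −1.93, and 1.38 and −1.80). The neighbours AT5G44990 and AT5G45000 were not alike in water, where npr1-1 was lower for the first (−1.04) and higher for the second (0.87). AT5G38900 and AT5G38910 also differed there, at −0.56 and 2.70. Among 113 placed members 6 had another member next to them, as did 6 of 187 placed genes of the mirror set.

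Genes next to the members were read too. Members and the genes left out by name were set aside, so no neighbour could meet the rule. How many neighbours were called in both was not counted. Of 108 measured neighbours that were no members, 11 (10.2%) were called higher with SA in Col-0 and 14 (13.0%) lower by the npr1-1 labels, against 7.8% and 10.9% of the other genes measured. The medians of the neighbours were 0.02 and −0.03.

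Genes of known defense and stress pathways were read in the same fit for context. The 10 pathway lists held 202 genes. Of these, 33 had a probe set of their own in the annotation used, here called measured, and 0 were members. Other listed genes may be read by probe sets without 1 gene in that annotation, which was not checked. The 0 holds for these lists only: the glycosyltransferases UGT73B4 and GT72B1 and the chitinase CHI, all members, are on none of them. Of the 33, 16 were called higher and 2 lower with SA in Col-0, and 2 higher and 18 lower by the npr1-1 labels. The interaction, which is the difference between the SA effects of the 2 genotypes, was called above 0 for 16.9% and below 0 for 15% of all probe sets. These lists were drawn up with earlier results of these data known. UGT76B1, GRX480 and GH3.3 are among the 33 and met both thresholds, but they were left out of the set by name.

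All 4 detoxification genes that were measured were called higher in Col-0 and lower by the npr1-1 labels: the glutathione transferases GSTU22 (1.98 and −0.67) and GSTU25 (0.60 and −1.96), and the glycosyltransferases UGT73B5 (0.89 and −0.69) and UGT87A2 (1.31 and −0.99). Each missed 1 or both thresholds. The share of all genes called in both was not counted. The joint counts here and in the lists below therefore support nothing. Among 7 measured genes of SA synthesis, signaling and conjugation, 3 were called higher and 2 lower in Col-0, and 3 lower and 1 higher by the npr1-1 labels. AT5G52810, which encodes the reductase SARD4 of pipecolic acid synthesis, had 0.66 and −4.38, so the fall was large and the rise missed the threshold.

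Genes of folding and secretion in the endoplasmic reticulum were called under the npr1-1 labels. Of 5 measured, 0 were called in Col-0 (limma, lowest adjusted p of 0.21, with 0 of 5 at an unadjusted p under 0.05) and 4 were called lower by the npr1-1 labels, among them the calreticulin gene CRT1b (0.04 and −0.81) and the transcription factor BZIP60 (−0.02 and −1.05). Of 4 hypoxia genes measured, 3 were called higher in Col-0 (AT4G10270, 3.54; AT4G33560, 3.09; AT3G10040, 1.90) and 1, AT4G10270, lower by the npr1-1 labels (−0.53). The heat shock gene AT5G48570 (ROF2), the only 1 of its list measured, had 0.62 and −1.81.

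In the remaining lists, 2 of 3 immune receptor genes were called both higher in Col-0 and lower by the npr1-1 labels, EFR (0.74 and −0.59) and SD1-29 (0.47 and −1.02). Of 3 WRKY factors, WRKY6 was called higher in Col-0 (0.95) and WRKY53 lower by the npr1-1 labels (−1.62). Of 4 auxin genes, GH3.3 was called in both, GH3.17 was called lower by the npr1-1 labels (−0.62), and the other 2 were not called. JRG21, 1 of 2 measured jasmonate genes, was called higher with SA under both labels (0.93 and 1.23). No gene of the camalexin list had a probe set of its own in the annotation used (0 of 12).

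Cell type markers, a spiked control and signs of RNA integrity were also read on the same arrays. Of 5 measured markers of photosynthetic tissue, 4 (LHCB4.1, PSBY, PSAN and RCA) were called lower with SA in Col-0 (−1.36 to −1.08) and higher by the npr1-1 labels (0.44 to 1.16). Their summed log2 level over the 5 genes was 38.7 to 39.0 in Col-0 water, 33.9 to 34.0 in Col-0 SA, 37.2 to 37.5 in npr1-1 water and 39.7 to 40.1 in npr1-1 SA. Of 3 epidermis and guard cell markers, FMA was called lower in Col-0 (−0.58). Of 2 root and 3 flower and pollen markers 0 were called (limma, 2 of the flower markers at an unadjusted p under 0.05 in Col-0). All lay under 1 on the log2 scale in their group means. Of 9 vasculature markers, 0 had a probe set of their own in the annotation used. The spiked dap control, RNA added in known amount, read 6.05 and 6.75 in Col-0 water, 7.50 and 7.37 in Col-0 SA, 6.09 and 6.26 in npr1-1 water and 6.51 and 6.22 in npr1-1 SA at its 3′ probe set, so it was highest in Col-0 SA. The 3′ minus 5′ difference of actin, a sign of RNA integrity, was 4.00 and 3.32 in Col-0 water, 5.60 and 4.40 in Col-0 SA, 4.09 and 6.07 in npr1-1 water and 5.41 and 4.62 in npr1-1 SA. A second pair of actin probe sets gave group means of 5.33, 5.03, 6.13 and 5.96 in the same order. The 2 pairs of GAPDH probe sets gave 2.54, 3.58, 3.36 and 3.70, and 0.63, 1.17, 1.07 and 1.14, so both were lowest in Col-0 water, as was the first actin pair but not the second. The part of tissue composition, RNA integrity or labelling in the pattern of the set was not tested.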

How the data were processed

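Whole-seedling RNA was hybridized to 8 Affymetrix ATH1 arrays, 2 per group by the labels. Per probe set and array, 1 log2 value was deposited, which the authors had background-corrected, normalized across arrays and summarized from single probes. GCOS and the RMA algorithm in affylmGUI are named in the methods for this, while Affymetrix Expression Console is listed by the submitters' processing notes. Their versions were not given in the sources used here. Values lay between −0.14 and 11.53, and a constant may have been subtracted from all, which is unknown. Signals of single probes, background and detection calls were not used here, so the number of arrays limits the precision.

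Control probe sets (64 of 22810) were left out. Of the 22746 others, 13513 had 1 gene in the platform annotation and 503 several, and the brightest over the 8 arrays stood for each of 13356 genes. Symbols followed the gene table of assembly TAIR10.1, in which 70 of these genes were not found. The files name no genome build, so no coordinates are given. The values of all probe sets were fitted with limma 3.58.1 (4 group means, eBayes, R 4.3.3; statmod 1.5.0 served the robust alternative), p was adjusted by Benjamini and Hochberg over all of them, and a call is an adjusted p under 0.05. SE are those of this fit. The fit was tested on simulated data.

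The members, gene lists and rules were chosen with earlier results of these data known. Genes named are the 15 members with the widest gap, the 5 largest and 5 smallest water differences, those at the thresholds, families with several members, members of known role, and up to 3 genes per pathway list. Further list genes (the fourth detoxification gene and those whose interaction was called) were named after their values were seen. ATH1 probe sequences and promoters were not analysed here, and the planned motif search in promoters was not run. Alternatives were other normalizations, a filter on dim probe sets, other thresholds and variance models, a replicate block and leaving out each array. The second probe set of a member was read after the data had been seen.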

Additional observations from a re-analysis of the deposited data

Results flagged for a closer look

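Effects of SA that differed between the genotypes were looked for by the interaction in the limma fit (adjusted p under 0.05). Over all probe sets, 16.9% passed above 0 and 15% below 0. All 114 members passed, which their choice fixes. Of the 30 measured pathway genes, leaving aside the 3 left out of the set by name, 22 passed, 18 with a difference below 0 (npr1-1 minus Col-0 in the SA difference, log2) and 4 above 0, on lists drawn up with earlier results known. The farthest below 0 were AT5G52810 with −5.04 and the hypoxia gene AT4G10270 with −4.07. The other hypoxia genes AT4G33560 and AT3G10040 had −2.88 and −1.97. Of the detoxification genes, GSTU22 had −2.65, GSTU25 −2.55, UGT87A2 −2.30 and UGT73B5 −1.58. The heat shock gene AT5G48570 had −2.43. The immune receptor genes SD1-29 and EFR had −1.49 and −1.33. The genes of the endoplasmic reticulum ATERDJ3B, BZIP60 and CRT1b had −1.46, −1.03 and −0.85. WRKY53 had −1.88, WRKY6 −0.67, GH3.17 −0.73 and UGT74F1 −0.58. Above 0 were WES1 (1.13), SAG101 (0.93), WRKY22 (0.68) and IAA29 (0.58). The photosynthesis markers PSAN (2.32), LHCB4.1 (1.91), PSBY (1.80) and RCA (1.72) also passed, in the direction opposite to the members.

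Outside the genes compared, 9233 probe sets had no gene of their own in the annotation, and 141 of them met both thresholds of the set. They were not named here, so the set holds only a part of the probe sets with this pattern. The spiked dap control at its 3′ probe set had a mean of 7.44 in Col-0 SA, above the 6.40 in Col-0 water, 6.18 in npr1-1 water and 6.37 in npr1-1 SA. Its part in the results was not tested.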

How the results depend on the processing

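The set held 108 to 120 genes when each array was left out in turn, of which 104 to 109 were members. It held 125 (112 of them members) after quantile normalization and 129 (114 members) after centring on the median. Without the dimmest 25% of probe sets it held 114, and 114 with every probe set in place of the brightest. On the arrays of replicate 1 and 2 alone it held 117 and 114, of which 93 and 96 were members. At a threshold of 1.5 in place of 1 it held 37, all of them members, by construction. In water, 79 to 87 members were called higher in npr1-1 and 3 to 5 lower when an array was left out. The count called lower was 7 after centring on the median and 1 without moderation of the variance. Of the pathway genes, with an array left out 13 to 16 were called higher and 1 to 3 lower in Col-0, and 2 to 3 higher and 16 to 18 lower by the npr1-1 labels. The count of those lower in Col-0 was 1 without Col-0 water replicate 1, Col-0 water replicate 2 or Col-0 SA replicate 1. Without moderation 10 were called higher and 1 lower in Col-0 and 1 higher by the npr1-1 labels, and 15 lower. The cause was not tested. With the replicate number as a block, 85 members were called higher and 5 lower in water, and the pathway counts were 16, 2, 2 and 18. The deviations of arrays with the same number correlated between −0.19 and 0.08 over the pairs of groups, so the numbers do not pair the arrays. Each group rests on 2 arrays, and members with a mean under 1 lie in the dim part of the scale.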
